A study of Sus scrofa with 8 samples.

Results

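Macrophages and neutrophils are the phagocytes of the gut wall, and 10 genes that mark them were followed in the middle jejunum of piglets: S100A8, S100A9, S100A12, FCER1G, CD14, CD163, CSF1R, SPI1, AIF1 and CYBB. A gene entered when a non-control probe carried a RefSeq accession of that gene, and the probe with the highest mean log2 processed intensity over all arrays stood for it. This gave 9 of the 10 genes a probe, of 3216 gene symbols with a probe on the array. CSF1R, the receptor for the macrophage growth factor CSF1, had none and is not analysed here. All 9 genes passed the filter on dim probes and were tested. CYBB is listed under an older name, GP91-PHOX, in the gene table and was matched as a synonym.

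The weaned group held 4 piglets (Duroc × Landrace), moved at 21 days of age to nursery pens with a basal diet of 14.48 MJ/kg digestible energy and 20.50% crude protein, and sampled at 25 days, 4 days after weaning. They were set against 4 suckling piglets of the same age and crossbreed that were still nursed by the sow. Each group took 1 piglet from each of 4 litters, and each piglet's RNA, from a segment of about 2 cm, was measured on an array of its own with 1 dye. Which litter a numbered replicate came from is not given in the labels.

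Macrophages of the healthy intestinal wall take up debris and haemoglobin and are renewed from blood monocytes, whereas neutrophils arrive from the blood mainly during inflammation. S100A8 and S100A9 together form calprotectin, an abundant protein pair of the neutrophil cytosol, and S100A12 is a related calcium-binding protein. CD14 presents bacterial lipopolysaccharide to Toll-like receptor 4, FCER1G is the signalling chain shared by several Fc receptors, and CD163 takes up haemoglobin bound to haptoglobin. SPI1 (PU.1) is the transcription factor that sets up the myeloid lineage, AIF1 (Iba1) is an actin-binding protein of macrophages, and CYBB is the membrane subunit of the phagocyte oxidase, which makes superoxide. These roles are known mainly from human and mouse work.

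Values are log2 processed intensities minus the array's own 75th percentile, so 0 marks that percentile; levels of different probes are not compared. Between 67.6% and 71.0% of probes per array were well above background, the scanner software's flag for a spot clearly brighter than its surroundings. The 75th percentile of the processed intensity lay between 317 and 390 on the weaned arrays and between 245 and 395 on the suckling arrays, with 245 in suckling replicate 1. All weaned arrays lay on one slide and all suckling arrays on the other, each slide with its own scan time, so for every difference below the group and the slide cannot be told apart. The filter on dim probes was passed by all 6 epithelial genes with a probe (EPCAM, CDH1, KRT8, FABP2, LGALS4 and ANPEP). All 5 smooth muscle genes with a probe passed it too. Of all 43603 probes 30554 passed, so passing does not test the tissue label. The jejunal wall is a mixture, so more cells of a type and more RNA per cell cannot be told apart.

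The comparison asks whether phagocyte genes differ between weaned and suckling jejunum. Of the 9 genes, 8 had a higher mean in weaned piglets, S100A8 being the exception, and the median log2 difference was 0.51. Over all 30554 tested probes 54.9% had a higher weaned mean, and the median difference was 0.039. None of the 9 passed the threshold (limma, Benjamini-Hochberg adjusted p under 0.05), where 0.177% of all tested probes did. At an unadjusted limma p under 0.05 there were 3 genes, FCER1G, CD14 and SPI1, all higher in weaned piglets; over all tested probes 12.3% reached this level, 7.75% as higher in weaned. In 2 of the 9 genes, FCER1G and AIF1, every weaned array lay above every suckling array; this held for 4.93% of all tested probes, and for 7.76% when either direction is counted. Neither gene kept this separation under quantile normalisation or in the authors' deposited table. These settings gave nearly the same differences (0.71 for FCER1G and 0.26 for AIF1 in each), so they are not separate checks. With single arrays left out, the median of the tested genes ran from 0.40, without suckling replicate 4, to 0.78, without weaned replicate 3.

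**Figure D1:**
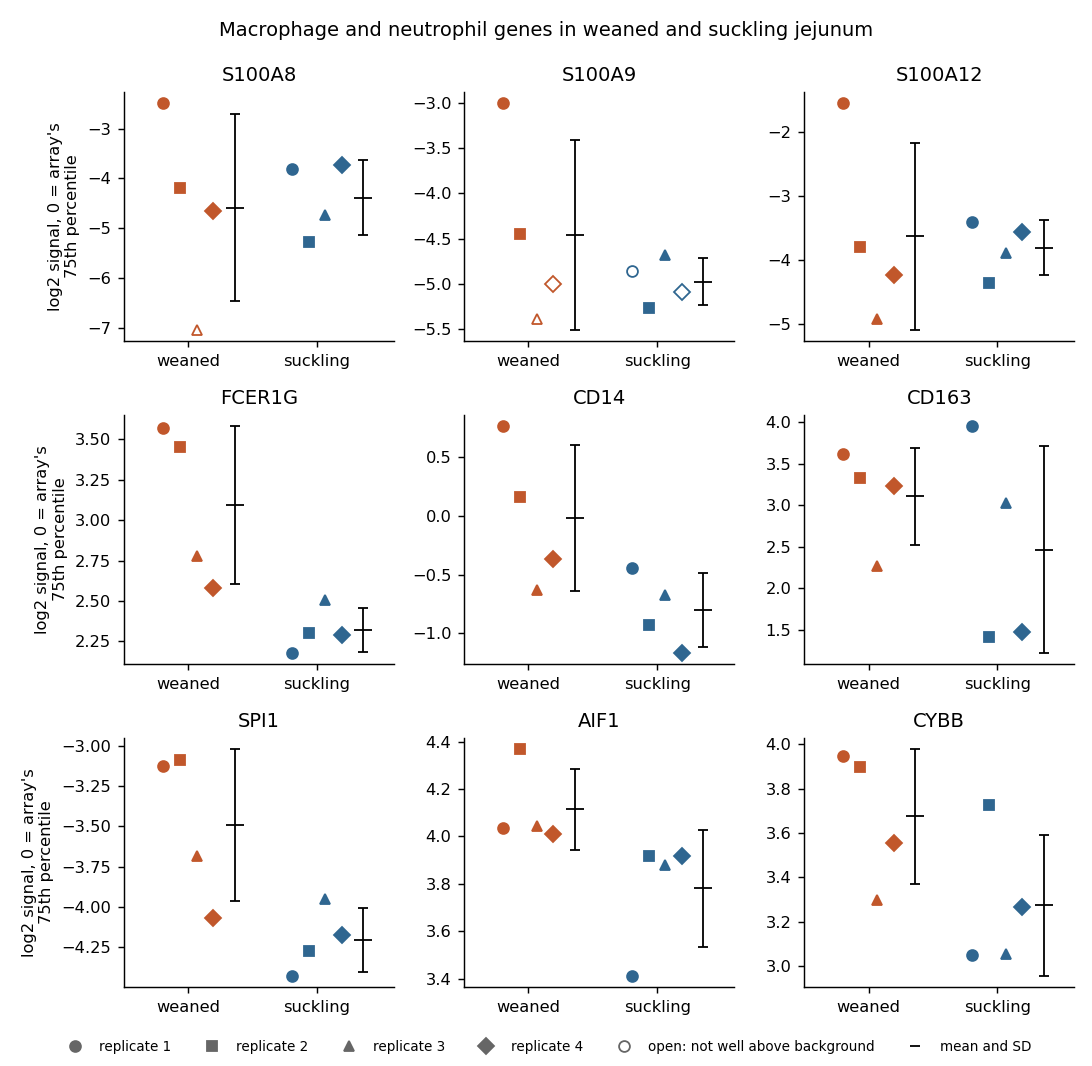
Level of each of the 9 genes on every array, as log2 processed intensity relative to the array's 75th percentile, weaned at the left and suckling at the right of each panel; symbols mark the replicate, open symbols a spot not well above background, and bars the mean and SD (n = 4 per group). The groups do not overlap for FCER1G and AIF1, weaned replicate 1 is highest for 6 genes, and the suckling values of CD163 spread from 1.41 to 3.96.

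Of the receptors, FCER1G had levels of 3.57, 3.45, 2.78 and 2.58 in weaned replicates 1 to 4, against 2.18, 2.30, 2.50 and 2.29 in suckling replicates 1 to 4. All weaned arrays lay above all suckling arrays, but the gap between the lowest weaned and the highest suckling array was narrow, and weaned replicates 1 and 2 stood well above the other two. The means were 3.09 ± 0.49 in weaned and 2.32 ± 0.13 in suckling piglets (SD, n = 4 each). The weaned level was 1.71-fold higher, a log2 difference of 0.78 (SE 0.24, 95% interval 0.24 to 1.32, limma adjusted p = 0.265). Permuting the group labels exactly, in 70 arrangements, gave a two-sided p of 0.0286, the smallest that 4 against 4 allow. Any gene whose groups do not overlap reaches this value. The same permutation test gave p of 0.0571 for CD14 and for SPI1, 0.114 for CYBB and 0.343 for CD163. For S100A9 it gave 0.486, and for S100A8 and S100A12 0.886 each. Under quantile normalisation and in the authors' deposited table the FCER1G groups overlapped, so this separation depended on the scaling.

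CD14 had levels of 0.77, 0.16, -0.63 and -0.37 in weaned replicates 1 to 4, against -0.44, -0.93, -0.67 and -1.17 in suckling replicates 1 to 4. Weaned replicate 1 was the highest array and weaned replicate 3 lay among the suckling arrays, so the groups overlapped. The log2 difference was 0.79 (SE 0.31, 95% interval 0.091 to 1.48, limma adjusted p = 0.357), 1.72-fold in the weaned direction. The second, dimmer CD14 probe differed by 0.74 (SE 0.35) and followed the first across the 8 arrays with a Pearson r of 0.93. The CD14 difference was 0.52 without weaned replicate 1 and 0.34 with normexp background correction (0.61 with flagged backgrounds replaced). Its unadjusted limma p was above 0.05 with normexp, but 0.035 with normexp once flagged backgrounds were replaced. This p was also above 0.05 without weaned replicate 1 or 2 or suckling replicate 2 or 4.

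CD163 had the widest spread of the 9 genes among suckling piglets. Its levels were 3.61, 3.32, 2.26 and 3.23 in weaned replicates 1 to 4, against 3.96, 1.41, 3.03 and 1.47 in suckling replicates 1 to 4. Suckling replicates 1 and 3 lay within or above the weaned values, while suckling replicates 2 and 4 lay below all weaned arrays; the suckling range was 5.85-fold and the weaned range 2.56-fold. The means were 3.11 ± 0.59 in weaned and 2.47 ± 1.24 in suckling piglets (SD, n = 4 each), a log2 difference of 0.64 (SE 0.57, 95% interval -0.66 to 1.94, limma adjusted p = 0.690) that is smaller than the spread among suckling piglets.

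The 3 further CD163 probes showed the same order of high and low suckling arrays as the brightest one, replicates 1 and 3 above replicates 2 and 4. The brightest of them read 3.15, 0.15, 1.94 and 0.09 in suckling replicates 1 to 4, and its r with the chosen probe over the 8 arrays was 0.995; the other 2 had r of 0.97 and 0.93. Their differences between the groups were 0.60, 0.99 and 0.32. The CD163 difference rested on single arrays: it was 1.14 without suckling replicate 1, 0.29 without suckling replicate 2 and 0.31 without suckling replicate 4. With array weights it was 0.99.

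SPI1 had levels of -3.13, -3.09, -3.68 and -4.07 in weaned replicates 1 to 4, against -4.43, -4.27, -3.95 and -4.17 in suckling replicates 1 to 4. As with FCER1G, weaned replicates 1 and 2 were the high arrays, and weaned replicate 4 lay between suckling replicates 3 and 4. The log2 difference was 0.72 (SE 0.24, 95% interval 0.17 to 1.26, limma adjusted p = 0.297), 1.64-fold in the weaned direction. The SPI1 probe was dim, with processed intensities of 22.9 to 45.6 on weaned and 11.4 to 25.5 on suckling arrays, although well above background on all 8. With normexp background correction, which adds an offset of 50 to every spot, its difference was -0.072, and 0.14 once backgrounds flagged as outliers were replaced by the array's median.

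AIF1 was measured at high signal, with processed intensities of 5200 to 8020 on weaned and 2610 to 5920 on suckling arrays. Its levels were 4.04, 4.37, 4.05 and 4.01 in weaned replicates 1 to 4, against 3.41, 3.92, 3.88 and 3.92 in suckling replicates 1 to 4. The groups did not overlap, but 3 weaned and 3 suckling arrays lay close together, and weaned replicate 2 and suckling replicate 1 stood apart from their groups. The log2 difference was 0.33 (SE 0.17, 95% interval -0.053 to 0.72, limma adjusted p = 0.471), 1.26-fold in the weaned direction, with an exact two-sided permutation p of 0.0286. The second AIF1 probe differed by 0.36 (SE 0.18). The AIF1 groups overlapped under quantile normalisation, median scaling, both normexp corrections and in the authors' deposited table. The AIF1 difference was 0.21 without suckling replicate 1 and 0.55 with normexp (0.31 with flagged backgrounds replaced).

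CYBB had levels of 3.95, 3.90, 3.30 and 3.55 in weaned replicates 1 to 4, against 3.05, 3.73, 3.05 and 3.27 in suckling replicates 1 to 4. Weaned replicates 1 and 2 were again the highest arrays, and suckling replicate 2 lay above weaned replicates 3 and 4. The log2 difference was 0.40 (SE 0.22, 95% interval -0.088 to 0.89, limma adjusted p = 0.492), and the second CYBB probe differed by 0.44 (SE 0.29).

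**Figure D2:**
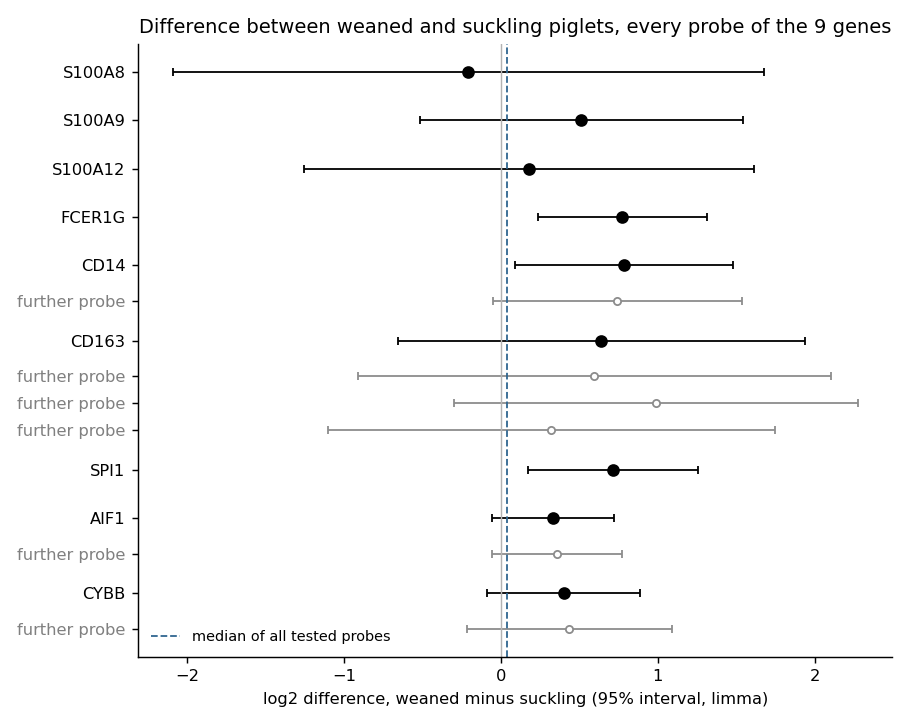
Log2 difference, weaned minus suckling, with its 95% interval from limma for each of the 15 probes of the 9 genes; filled points mark the brightest probe of a gene, open points its further probes, and the dashed line the median of all tested probes (0.039). The 6 further probes all lie above 0, and of the 15 probes only that of S100A8 lies below 0.

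For the S100 genes the weaned arrays spread widely on both sides of the suckling arrays. S100A12 had levels of -1.54, -3.80, -4.93 and -4.23 in weaned replicates 1 to 4, against -3.40, -4.37, -3.89 and -3.57 in suckling replicates 1 to 4. One weaned piglet, replicate 1, lay above all other arrays, and weaned replicate 3 lay below all of them. The weaned range was 10.5-fold, against 1.95-fold in suckling piglets.

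S100A8 had levels of -2.49, -4.20, -7.04 and -4.65 in weaned replicates 1 to 4, against -3.81, -5.28, -4.73 and -3.74 in suckling replicates 1 to 4. Again weaned replicate 1 was the highest and weaned replicate 3 the lowest of the 8 arrays, and on weaned replicate 3 the spot was not well above background. S100A9 had levels of -3.00, -4.45, -5.39 and -5.00 in weaned replicates 1 to 4, against -4.86, -5.26, -4.68 and -5.09 in suckling replicates 1 to 4, with the same arrays at both ends.

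The S100 signals were low. Processed intensities were 2.96 to 56.5 on weaned and 10.1 to 25.6 on suckling arrays for S100A8. S100A9 was well above background on weaned replicates 1 and 2 and suckling replicates 2 and 3 alone, S100A8 on 7 of 8 arrays and S100A12 on all 8. The S100A8 difference was -0.21 (SE 0.83, limma adjusted p = 0.940), that of S100A9 0.51 (SE 0.46, limma adjusted p = 0.686) and that of S100A12 0.18 (SE 0.63, limma adjusted p = 0.932). The 95% intervals were -2.09 to 1.68, -0.52 to 1.54 and -1.25 to 1.61 in this order, so each interval held both no difference and a 2-fold higher weaned level.

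Without weaned replicate 3 the S100A9 difference was 0.82, and without suckling replicate 4 it was 0.47. The direction of the S100 genes depended on single arrays and on the processing. Without weaned replicate 1 the S100A12 difference was -0.52, and without suckling replicate 2 it was -0.0074. Without weaned replicate 3 the S100A8 difference was 0.61, and without suckling replicate 4 it was 0.010. Array weights gave 0.23 for S100A8, and normexp gave -0.20 for S100A9 and -0.24 for S100A12 (0.061 and 0.067 with flagged backgrounds replaced). In the gene order of the pig assembly Sscrofa11.1, S100A8, S100A12 and S100A9 are next to each other in this order.

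**Figure D3:**
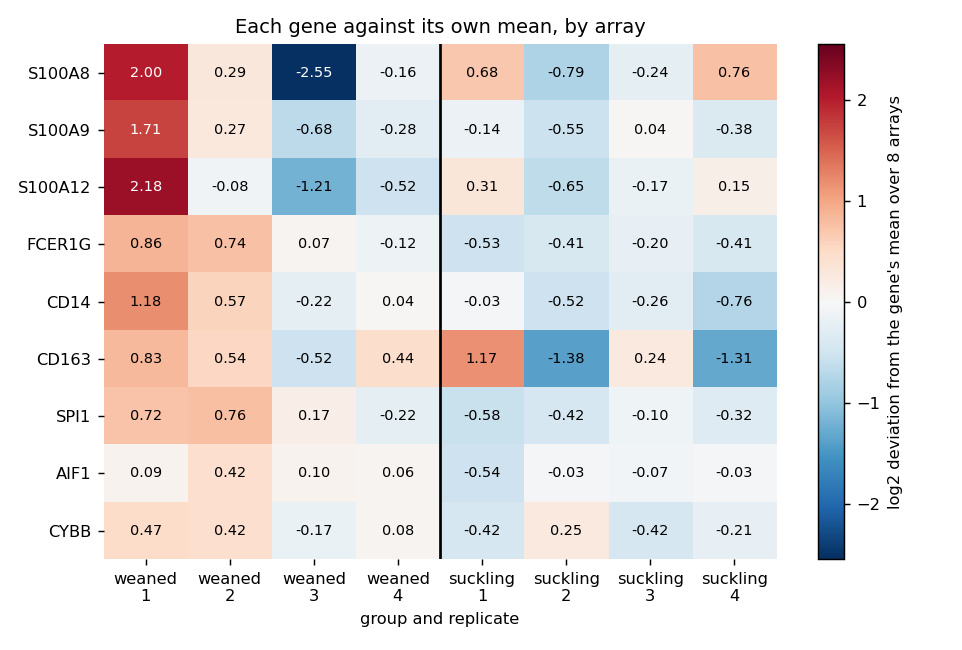
Deviation of each gene from its own mean over the 8 arrays (log2), with weaned arrays left of the black line and suckling arrays right of it; red is above and blue below the mean. Weaned replicate 1 is above the mean in all 9 genes, the S100 genes vary most among weaned arrays, and CD163 varies most among suckling arrays.

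The array with the most phagocyte signal was weaned replicate 1, which was above the gene's mean in all 9 genes and the highest of the 8 arrays in 6 (the 3 S100 genes, FCER1G, CD14 and CYBB). Weaned replicate 2 was above the mean in 8 and the highest in 2 (SPI1 and AIF1), and suckling replicate 1 was the highest for CD163. Weaned replicates 3 and 4 were above the mean in 3 and 4 genes, and suckling replicates 1 to 4 in 3, 1, 2 and 2 genes. The median deviation over the 9 genes was 0.86, 0.42, -0.22 and -0.12 in weaned replicates 1 to 4, against -0.14, -0.52, -0.17 and -0.32 in suckling replicates 1 to 4. Weaned replicate 3 thus lay within the range of the suckling arrays and weaned replicate 4 just above it. The range over arrays was wider among weaned piglets for 6 genes and wider among suckling piglets for 3 (CD163, AIF1 and CYBB).

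The genes fell into patterns when followed over the 8 arrays, which lie on 2 slides that match the groups, so the correlations are descriptions. FCER1G and SPI1 varied together most closely, with a Pearson r of 0.985 (n = 8 arrays). The 3 S100 pairs had r of 0.76 to 0.93. CD163 followed neither CYBB (r = 0.031) nor AIF1 (r = -0.16) closely, and AIF1 and S100A8 had r of -0.12. Over all 36 pairs the median r was 0.55, and 3 pairs were below 0.

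For each member the genes with the highest of 2764 correlations over 8 arrays were picked, so the search itself favours a high r. Links between these genes and the members were not tested. Among 2764 further named genes, those most like FCER1G were MMP12, a macrophage elastase (r = 0.97, n = 8 arrays), and BCL2A1, an inhibitor of cell death in leukocytes (r = 0.96). The same genes were most like SPI1, with r of 0.96 for MMP12 and 0.98 for BCL2A1. MMP12 had levels of -0.036, 0.35, -3.86 and -4.14 in weaned replicates 1 to 4, against -4.79, -4.93, -3.54 and -4.70 in suckling replicates 1 to 4. Weaned replicates 1 and 2 thus stood far above all other arrays, and weaned replicates 3 and 4 were at the suckling level (log2 difference 2.57, SE 1.02, limma adjusted p = 0.365).

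The gene most like S100A9 was SAA3, an acute phase serum amyloid A (r = 0.95, n = 8 arrays). It had levels of 6.09, 0.59, -2.30 and -0.22 in weaned replicates 1 to 4, against 0.48, -2.87, -0.098 and -3.40 in suckling replicates 1 to 4. Weaned replicate 1 was far above every other array, and the groups otherwise overlapped (log2 difference 2.51, SE 1.67, limma adjusted p = 0.579). The next gene for S100A9 was NR4A3, a nuclear receptor (r = 0.94); those for S100A12 were CPEB1 and KRT3 (r = 0.92 each), and those for S100A8 were HPS5 and LEF1 (r = 0.89 and 0.87).

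CD14 varied most like IL27, a subunit of a cytokine of antigen-presenting cells (r = 0.96, n = 8 arrays), and NR4A3 (r = 0.94). AIF1 varied most like PIGU (r = 0.94) and RETN, which encodes resistin (r = 0.94), and CYBB most like PLAU, the urokinase (r = 0.89), and CHI3L1, a chitinase-like protein (r = 0.88). CHI3L1 had levels of -1.47, -1.37, -2.19 and -1.70 in weaned replicates 1 to 4, against -3.84, -2.27, -3.07 and -3.24 in suckling replicates 1 to 4. These groups did not overlap (log2 difference 1.42, SE 0.33, limma adjusted p = 0.165).

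CD163 varied most like SRSF10 and PPM1F (r = 0.98 each, n = 8 arrays). CD5L, a secreted protein of tissue macrophages that was named after its values were seen, had levels of 0.063, 0.38, 0.033 and 1.25 in weaned replicates 1 to 4, against 2.88, -2.23, -0.74 and -2.17 in suckling replicates 1 to 4. Its highest array was suckling replicate 1 and its lowest were suckling replicates 2 and 4, the arrays at the ends of the CD163 values.

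**Figure D4:**
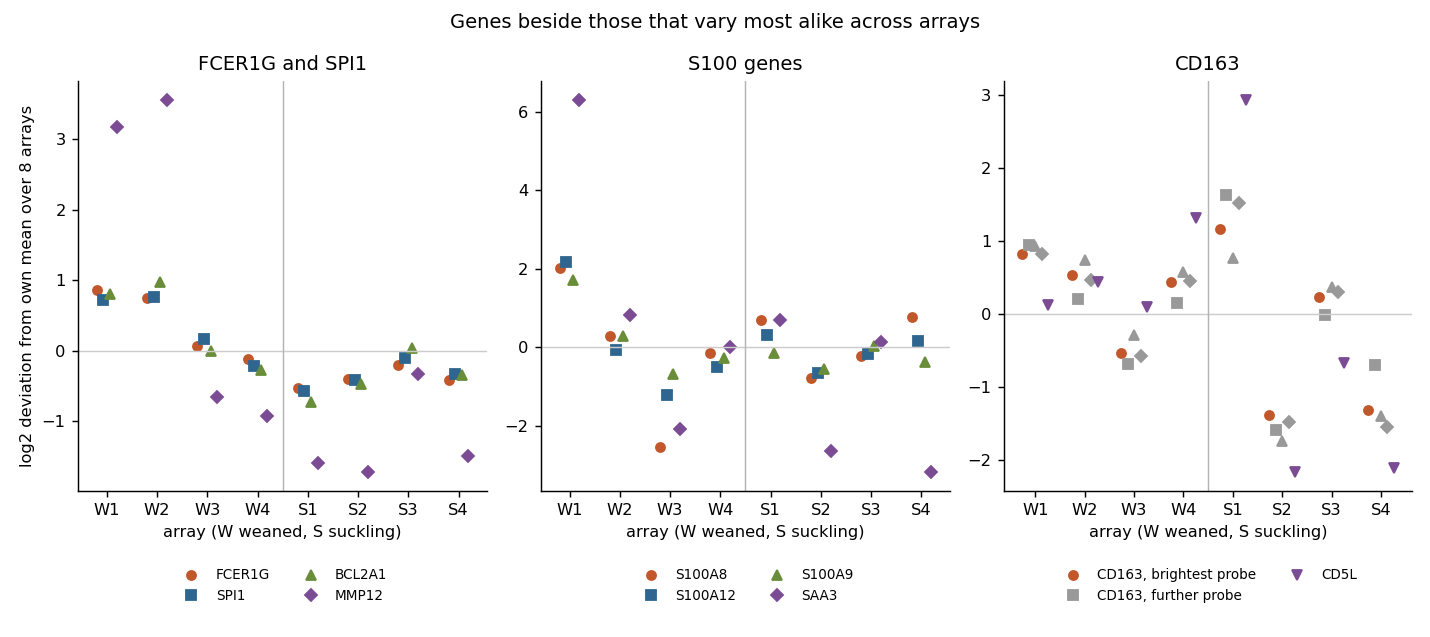
Deviation of single genes from their own mean over the 8 arrays (log2, W weaned, S suckling, the number is the replicate). MMP12, BCL2A1 and SAA3 were picked for their high r with members. MMP12 stands high on W1 and W2 with FCER1G, SPI1 and BCL2A1, SAA3 stands high on W1 with the S100 genes, and 3 of the 4 CD163 probes and CD5L are highest on S1; all 4 CD163 probes and CD5L are lowest on S2 and S4.

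Other genes of the same cells and pathways were taken from lists, and none of their tested members passed the threshold over all probes (limma; counts at an unadjusted p under 0.05 are given where there were any, and 12.3% of all tested probes reached that level). Of 16 tested monocyte, macrophage and dendritic cell genes 13 had a higher weaned mean, and the list's median log2 difference was 0.31; at an unadjusted p under 0.05 there were 2 higher and 2 lower. ITGB2, the shared chain of the leukocyte integrins, had 2.25, 2.31, 1.75 and 1.86 in weaned replicates 1 to 4, against 1.47, 0.94, 1.46 and 1.18 in suckling replicates 1 to 4 (log2 difference 0.78, SE 0.20, limma adjusted p = 0.196). Every weaned array lay above every suckling array, as it did for LYZ, the antibacterial enzyme lysozyme of phagocytes and secretory cells (1.78, SE 0.60, limma adjusted p = 0.297). The 2 lower genes were CD1D, which presents lipids to T cells (-0.67, SE 0.22, limma adjusted p = 0.287), and VSIG4, a complement receptor of resident macrophages (-0.57, SE 0.20, limma adjusted p = 0.316). The complement subunits C1QA, C1QB and C1QC, made by macrophages, had differences of 0.20, 0.34 and 0.23.

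Of 8 tested neutrophil genes 5 were higher in weaned piglets, with a median of 0.34; 2 of them, CXCL8 and TREM1, had an unadjusted p under 0.05. CXCL8, the main chemokine for neutrophils, had 2.47, 3.22, 2.61 and 2.51 in weaned replicates 1 to 4, against 2.23, 1.51, 1.99 and 1.86 in suckling replicates 1 to 4, without overlap (log2 difference 0.80, SE 0.22, limma adjusted p = 0.230). TREM1, an activating receptor of neutrophils and monocytes, differed by 1.31 (SE 0.52, limma adjusted p = 0.362) at low signal. It was well above background on 3 weaned arrays and 1 suckling array, so the suckling side of this difference is mostly at background. ELANE, the neutrophil elastase, differed by -0.024 and MMP9, a gelatinase of neutrophil granules, by 0.22 (SE 0.85). LCN2 was not tested because too few arrays were well above background.

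Genes that work with single members were taken next. Of the oxidase partners of CYBB, NCF1 differed by 0.48 (SE 0.22, limma adjusted p = 0.417) without overlap, CYBA by 0.15 and RAP1A by -0.12. Of the Fc receptor and signalling genes around FCER1G, 7 of 8 were higher, with a median of 0.25. FCGR1A, the high-affinity IgG receptor, differed by 1.35 (SE 0.64, limma adjusted p = 0.441) at low signal. It was well above background on 4 weaned and 3 suckling arrays, and its suckling levels ran from -6.11 to -3.24. TYROBP, the sister signalling chain of FCER1G, differed by 0.28 (SE 0.20). Of the lipopolysaccharide sensing genes around CD14, 7 of 10 were higher, with a median of 0.12; TLR4, the receptor that CD14 serves, differed by 0.39 (SE 0.21, limma adjusted p = 0.505) and IRAK4, a kinase downstream of it, by -0.40 (SE 0.22, limma adjusted p = 0.489).

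Around CD163, 5 of 7 genes of haemoglobin uptake and iron recycling were lower in weaned piglets, with a median of -0.18; HMOX1, the haem oxygenase, differed by -0.53 (SE 0.30, limma adjusted p = 0.518), and FTH1, ferritin heavy chain, by -0.25 without overlap (SE 0.13, limma adjusted p = 0.492). Other S100 and calprotectin receptor genes had 5 of 7 higher and a median of 0.13, with S100A6 at 0.90 and S100A16 at 0.46 (limma adjusted p = 0.475 and 0.443). All 3 tested transcription factors beside SPI1 (CEBPB, KLF4 and ETS1) were higher, by 0.65, 0.28 and 0.22. CEBPB had an SE of 0.53 and was well above background on 3 weaned and 3 suckling arrays. CSF2, the granulocyte-macrophage growth factor, had -1.59, -2.58, -2.05 and -1.94 in weaned replicates 1 to 4, against -3.08, -2.96, -2.79 and -3.37 in suckling replicates 1 to 4 (log2 difference 1.01, SE 0.23, limma adjusted p = 0.157), without overlap and with an unadjusted p of 0.0016. CSF3, the granulocyte growth factor, differed by 0.12.

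**Figure D5:**
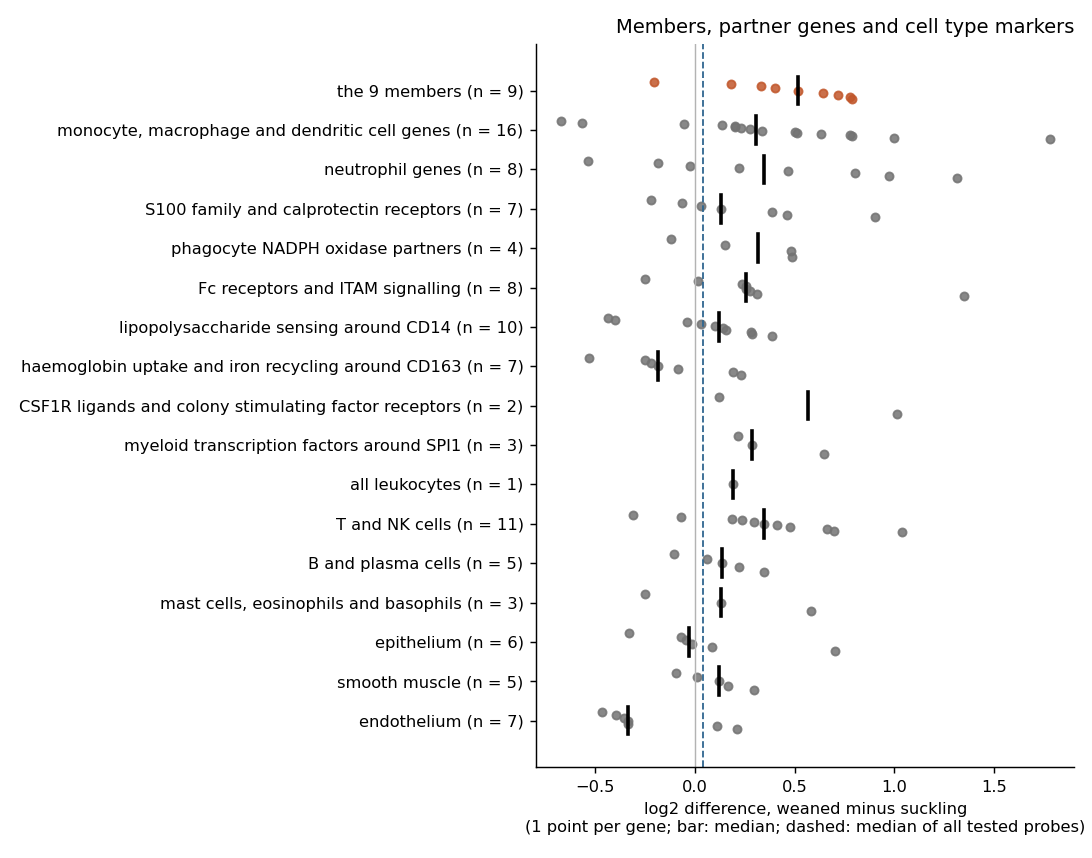
Log2 difference, weaned minus suckling, of every tested gene in each list (1 point per gene), with the list's median as a bar and the median of all tested probes as a dashed line. The 9 members lie between -0.21 and 0.79 around a median of 0.51, and the lists of haemoglobin and iron genes, of endothelium and of epithelium have medians below 0.

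Markers of other cell types were described in the same way, and none passed the threshold. Over all tested probes 12.3% had an unadjusted limma p under 0.05. Of 11 T and NK cell genes 9 were higher, 2 of them at an unadjusted p under 0.05, with a median of 0.35. GZMB, a protease of cytotoxic cells, differed by 1.04 (SE 0.32, limma adjusted p = 0.259), and NKG7, a granule protein of the same cells, by 0.66. The 2 lower genes were the T cell receptor chains CD3G (-0.31) and CD3D (-0.072), and the third chain, CD3E, differed by 0.18. The summed level of this list (linear scale, in which bright probes weigh most) was 48.1 to 59.9 in weaned against 20.6 to 41.5 in suckling piglets. GZMB made up 57.9% to 84.9% of it, and without GZMB the sums were 7.55 to 12.8 in weaned against 7.31 to 10.75 in suckling piglets, so the groups then overlapped. For the macrophage list the summed level was 415 to 513 in weaned against 223 to 343 in suckling piglets. Without LYZ, which made up 8.39% to 60.4% of it, the sums were 190 to 255 in weaned against 102 to 204 in suckling piglets, also with overlap. For the neutrophil list it was 16.6 to 31.6 in weaned against 12.7 to 21.5 in suckling piglets, and without MMP9, its brightest gene, 15.0 to 21.3 in weaned against 10.69 to 12.4 in suckling piglets. These sums without a gene were chosen after the data were seen. Endothelial genes were lower in 5 of 7, of which 4 had an unadjusted p under 0.05, with a median of -0.34 and a summed level of 14.8 to 14.9 in weaned against 16.6 to 18.5 in suckling piglets; CDH5 and CLDN5, junction proteins of vessels, differed by -0.40 and -0.47. Without PECAM1, its brightest gene, the endothelial sum was 9.69 to 10.5 in weaned against 9.94 to 13.3 in suckling piglets.

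B and plasma cell genes were higher in 4 of 5, with a summed level of 113 to 146 in weaned against 125 to 153 in suckling piglets. Mast cell, eosinophil and basophil genes were higher in 2 of 3, with a summed level of 6.70 to 8.26 in weaned against 4.77 to 8.87 in suckling piglets. GATA2, a transcription factor of these cells, differed by 0.58, at an unadjusted limma p under 0.05. KIT differed by 0.13, and MS4A2, the lower gene of this list, by -0.25. Epithelial genes were lower in 4 of 6, with a summed level of 1017 to 1281 in weaned against 780 to 1655 in suckling piglets; KRT8, a keratin, differed by 0.70, at an unadjusted p under 0.05, and FABP2, a fatty acid binding protein, by -0.33. Smooth muscle genes were higher in 4 of 5, with a summed level of 78.6 to 262 in weaned against 140 to 299 in suckling piglets. The single gene of all leukocytes with a probe, CD48, differed by 0.19. Of the red blood cell genes, HBE1, an embryonic globin, was too dim to be tested, being well above background on 0 weaned and 3 suckling arrays. The part of these cell types, and of the slide's other differences, in the phagocyte values was not tested.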

How the data were processed

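Total RNA of the middle jejunum (integrity number at least 7.0) was amplified and labelled with Cy3, per the labels' protocols, and read with Agilent Feature Extraction 10.7, per the submitters' processing notes. The deposited scanner files hold, per spot, a processed intensity from which background was already subtracted, a median intensity and a local background intensity. The authors' deposited table of log2 values served as an alternative. Its column medians were nearly equal, at 5.50, and it had the rank order of the processed intensities. Its differences were close to those under quantile normalisation (for CD14 0.780 and 0.782), so these settings are not separate checks. Whether a constant was added is unknown.

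Control spots were left out and spots flagged as outliers set to missing, which left 43603 probes; no spot was saturated. RefSeq accessions named 6924 probes (15.9%) through a gene table of Sscrofa11.1, used for names and gene order alone. Probes well above background on at least 4 arrays with at least 3 values per group were tested (30554), with limma 3.58.1 in R 4.3.3, group as the sole term; the script was tested on simulated data. The number of arrays limits the precision. Members and lists were chosen with earlier results of these data known. Named are all members, up to 4 genes of a list past the threshold or else the 2 with the smallest p, and the 2 genes with the highest r to each member; LYZ, VSIG4 and further list genes were added after their values were seen. Some genes of the lists are not reported here. Replicates are separate piglets. The alternatives were quantile and median scaling, normexp background correction, other filters, keeping outlier spots, a robust prior with a trend on intensity, array weights, a replicate block, the deposited table, the mean over probes and leaving out each array.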

Additional observations from a re-analysis of the deposited data

Results flagged for a closer look

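In 20 groups of 4 values (9 genes and their median deviation, in each piglet group), the gap between an extreme array and its nearest neighbour was compared with the group's range, and 2 groups had a gap share above Dixon's 95% critical value; chance gives about 5% of such groups. Both were AIF1. Among weaned piglets replicate 2 was the high array at 4.37, with a gap of 0.897 of the range, and among suckling piglets replicate 1 was the low array at 3.41, with a gap of 0.929 of the range. The second AIF1 probe read 3.39 on weaned replicate 2 and 2.34 on suckling replicate 1, also the highest and the lowest of its 8 values.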

How the results depend on the processing

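None of the 9 genes passed the limma threshold under any of 20 alternatives, and their median difference stayed within 0.31 to 0.64 under processing alternatives and 0.40 to 0.78 with arrays left out. FCER1G, CD14, CD163, AIF1 and CYBB kept their direction under all 20. The planned normexp correction gave 5 genes higher, 1 gene at an unadjusted p under 0.05, 1 gene without overlap and 0 probes past the threshold, and turned S100A9, S100A12 and SPI1 to -0.20, -0.24 and -0.072; on weaned replicate 1 and suckling replicate 4 the lowest median minus background intensity of any spot was -11649 and -61216.5, and median probes came out at 457 and 1324 against 91.4 to 111 on the other arrays. Of all tested probes, 0.821% were at an unadjusted limma p under 0.05 and 1.16% were without overlap under this correction. With flagged backgrounds replaced, chosen after seeing the data, 8 genes were higher and 1 did not overlap, as for 6.94% of all tested probes. Genes without overlap numbered 0 under quantile normalisation and the deposited table, 1 (FCER1G) under median scaling, and 2 to 3 with an array left out. Of all tested probes 7.53%, 7.55% and 7.72% were without overlap in these settings in this order, and 9.56% to 20.5% with an array left out. With an array left out, genes higher in weaned numbered 6 to 9 and those at an unadjusted limma p under 0.05 numbered 2 to 4. Of all tested probes 8.25% to 22.5% then reached that level. Array weights turned S100A8 to 0.23 and gave 324 probes past the threshold, against 54. With arrays left out there were 9 to 553 such probes, 553 without suckling replicate 1. S100A8 ran from -0.91 to 0.61 (0.61 without weaned replicate 3, 0.010 without suckling replicate 4), and S100A12 from -0.52 without weaned replicate 1 to 0.61, with -0.0074 without suckling replicate 2. S100A9 was too dim to be tested in 4 of these runs. The replicate block gave 0 probes past the threshold and left 3 genes at an unadjusted limma p under 0.05, a level that 13.7% of all tested probes reached. Deviations of same-numbered arrays correlated at 0.37, 0.0076, 0.19 and -0.018 across probes. Only 3 of 8 arrays correlated best with their own number, so the numbers were not taken as pairs. The causes of these changes were not tested. Signal over background limits the S100 genes and SPI1 most.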
